A study of Homo sapiens with 30 samples.

Results

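The step from 6 to 12 h of activation was examined in Jurkat cells that carry a knockout (KO) of SLAMF6 isoform 1. It compares 3 KO libraries of 12 h (B7, B8 and B9 by title) with 3 KO libraries of 6 h (B4, B5 and B6), 6 of the 30 libraries of the series. All expressed genes were described, 21554 of the 54300 gene symbols counted. Jurkat E6-1 is a human T cell leukaemia line, and the deletion is written in the protocol as SLAMF6∆17-65. Both groups had received PMA at 200 ng/ml and ionomycin at 300 ng/ml. Levels at 24 h, quoted for a few genes, are from 3 KO libraries (B10 to B12) with the same agents. The KO libraries at rest (0 h, B1 to B3, 3 libraries) served to define the early response, and WT Jurkat libraries of 12 h (A7 to A9) and 6 h (A4 to A6), 3 each, with the same agents, served to test whether the step differed by genotype. The series is titled after an overexpressed isoform 3, whereas its design describes the isoform 1 knockout, which was taken as given. The time points carry no unit in the labels and were taken as hours. Neither separate cultures for the 3 libraries of a time nor the number of KO clones is stated in the labels, so p-values rest on a spread between libraries that may be technical.

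SLAMF6 is a homophilic receptor of the SLAM family on T, B and NK cells that signals through the adaptor SAP. PMA mimics diacylglycerol and activates protein kinase C, and ionomycin raises intracellular calcium, so that together they bypass the T cell receptor and drive AP-1, NF-kB and NFAT. A T cell activated in this way first switches on immediate early genes and cytokines, many of whose transcripts are short-lived and restrained by feedback inhibitors. Interferon-stimulated genes and the class I antigen presentation machinery are switched on downstream of interferon receptors.

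The 12 h libraries held 20.8, 21.1 and 19.3 M counts in B7, B8 and B9, against 22.2, 24.1 and 21.1 M in B4, B5 and B6 of 6 h. A library of 6 h and a library of 12 h stood apart from their own group. On the first principal component of the 6 libraries (32.9% of variance), B7 lay at 17.3 while B8 and B9 lay at 48.2 and 52.3, and B5 lay at -18.6 while B4 and B6 lay at -48.9 and -50.3. On the second component (22.1%) B7 lay at -57.1 and B5 at 55.4, opposite ends of the axis. B5 was low and B7 high, each against its own group, for IL2, TNFSF14, CCL4 and MYC, as the values below show. The cause was not tested. SLAMF6 itself had 50.01, 59.4 and 48.0 CPM (TMM-scaled counts per M) at 12 h, against 38.8, 40.2 and 47.9 CPM at 6 h in KO cells, and 53.3, 51.0 and 49.5 CPM at 12 h, against 40.4, 39.9 and 36.1 CPM at 6 h in WT cells. A count over the whole gene does not tell isoforms apart, so it checks nothing about the deletion. The T cell genes CD3D, CD3E, CD3G, CD247, LCK and LAT lay between 97.0 and 1726 CPM in the 12 h libraries and between 91.5 and 2279 CPM in the 6 h libraries. Marker levels were summed over all 8 genes of a list, tested or not. Of 8 monocyte markers 6 were tested, and the sum was 31.5 to 46.3 CPM at 12 h and 26.1 to 38.9 CPM at 6 h. Most of it was CD68, with 2051 counts at 12 h and 1770 at 6 h, and LYZ was at 0 in all 6 libraries. Of 8 B cell markers 7 were tested, and the sum was 21.1 to 31.2 CPM at 12 h and 26.8 to 28.1 CPM at 6 h. Most of it was CD79A and BLK, with 841 and 703 counts at 12 h and 988 and 666 at 6 h. No tested member of the monocyte or B cell list was called by edgeR or DESeq2, and 1 B cell marker was higher and 1 lower at an unadjusted p under 0.05. Adherent line markers, 5 of 8 tested, summed to 1.73 to 2.82 CPM at 12 h and 4.80 to 6.86 CPM at 6 h, and erythroid markers, 1 of 8 tested, to 0.337 to 1.61 CPM at 12 h and 0.262 to 0.585 CPM at 6 h, with HBA1 at 0 in all 6 libraries. Of the adherent line markers KRT8 (log2 -1.59, adjusted p = 0.0307) and COL1A1 (log2 -1.63, adjusted p = 0.0488) were called lower at 12 h, at levels of at most 3.32 CPM. The KRT8 call was lost without any single one of the 6 libraries (adjusted p = 0.0662 to 0.118), and the COL1A1 call without B4, B6, B8 or B9 (adjusted p = 0.0688 to 0.291). The part of these low levels in the results was not tested.

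**Figure D1:**
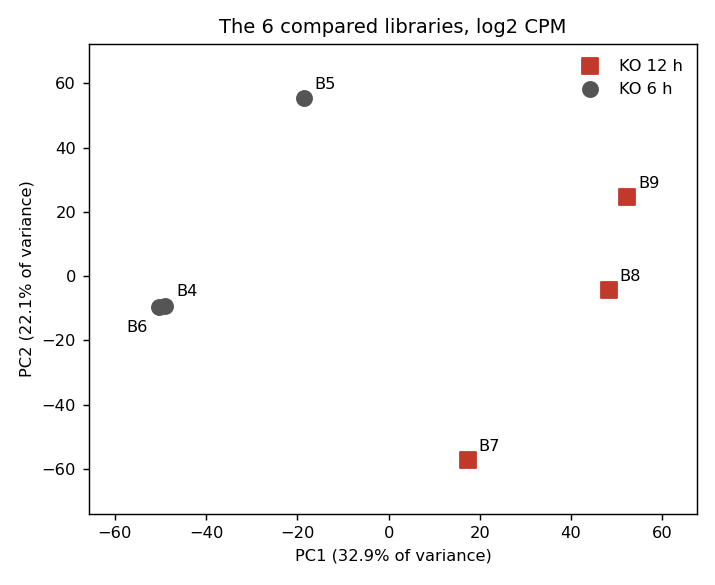
Principal components of log2 CPM over the 6 compared libraries, one point per library, with KO 12 h as red squares and KO 6 h as grey circles. B5 and B7 lie at opposite ends of the second component, 55.4 and -57.1, and nearer to 0 on the first than the other libraries of their own time.

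Between 6 and 12 h, 2334 of 21554 genes changed in KO cells (10.8%; edgeR quasi-likelihood test, Benjamini-Hochberg adjusted p under 0.05), 1095 higher (5.08%) and 1239 lower (5.75%) at 12 h. At least 2-fold changes were seen for 288 of the higher and 351 of the lower genes, and the median over all genes tested was 0.01 on the log2 scale. Among the lists described below, 25 of 35 interferon-stimulated and 16 of 24 antigen presentation genes rose, and 28 of 35 S phase and 22 of 39 ribosome biogenesis genes fell. Since RNA was measured in bulk, fewer cells of a type and less RNA per cell cannot be told apart. The number of changed genes was 2816 without both B5 and B7. It was 1490 without B4, 1549 without B6, 1456 without B8 and 1526 without B9, and 1360 when the 6 libraries were fitted alone.

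Each gene was then placed by its early change, 6 h against 0 h, which was called for 5858 genes (27.2%). Of these, 960 genes (16.4%) faded, meaning that they moved back at 12 h against 6 h. Another 417 (7.12%) grew, moving further in the first direction, and 3268 (55.8%) held, with no call between 6 and 12 h and a call in the first direction at 12 h against 0 h (5986 genes called in that comparison, 27.8%). The last 1213 (20.7%) had no further call in the first direction and were left unsettled. A further 645 genes began after 6 h, called at 12 h against both 6 h and 0 h, 300 of them higher and 345 lower. The 3 comparisons share libraries, the 6 h libraries standing on opposite sides of the first and second, so these counts are descriptions. The faded genes numbered 592 without B4, 620 without B8 and 1276 without B5 and B7. The grown genes numbered 269 without B6 and 367 without B5 and B7, and those that began 384 without B8, 402 without B9 and 818 without B5 and B7.

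Fading was partial for many genes. Among the 561 faded genes that had risen by 6 h, the median log2 change was 1.09 at 6 h over 0 h, -0.74 at 12 h over 6 h and 0.30 at 12 h over 0 h. At 12 h, 228 of them were still above rest, 314 were not called and 19 were below rest. Among the 399 that had fallen by 6 h, 108 were still below rest at 12 h, 277 were not called and 14 were above rest.

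**Figure D2:**
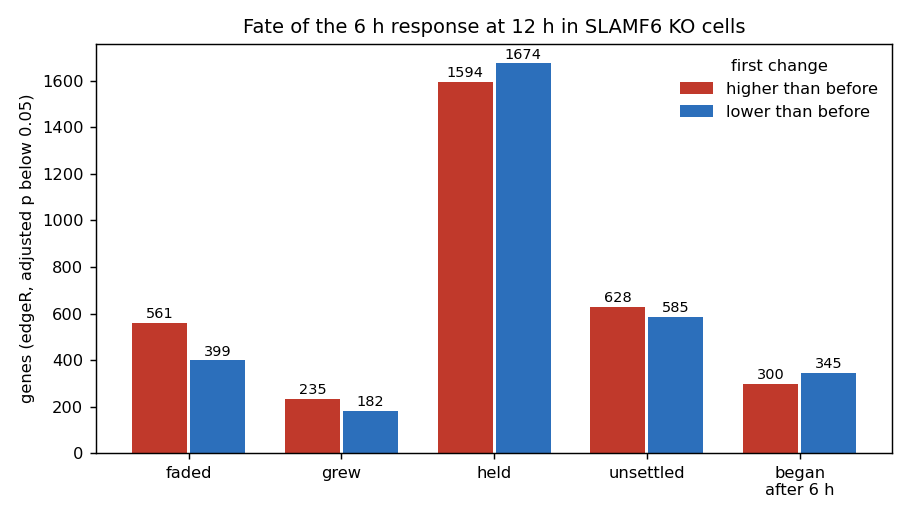
Number of genes in each class in SLAMF6 KO cells, split by the direction of the first change, which is 6 h against 0 h for the first 4 classes and 12 h against 6 h for the genes that began later. Held genes are the most numerous class, 1594 that had risen and 1674 that had fallen, and faded genes outnumber grown genes in both directions.

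Cytokine and chemokine transcripts were among the fading genes, although more members of the list held than faded. Of 27 tested members of the cytokine list, 21 had risen by 6 h (14% of all genes did). Between 6 and 12 h 7 fell and 1 rose (5.75% and 5.08% of all genes did), and 13 held. The list median was -0.64 on the log2 scale, against 0.01 for all genes. The number that fell was 14 without B7 and 15 without both B5 and B7. IL8, the chemokine CXCL8 that attracts neutrophils, had 3.41, 0.529 and 2.05 CPM at 12 h, against 19.0, 8.997 and 17.4 CPM at 6 h. Each 12 h library was below each 6 h library. The log2 change was -2.92 (SE 0.42, adjusted p = 9.35e-06), and -3.57 without B7. IFNG, the effector cytokine interferon gamma, had 19.5, 5.05 and 4.32 CPM at 12 h, against 50.6, 19.2 and 49.8 CPM at 6 h. B7, the highest 12 h library, reached the level of B5, the lowest 6 h library, so the groups overlapped. The log2 change was -2.05 (SE 0.43, adjusted p = 0.00133), -3.09 without B7, and the adjusted p was 0.0528 when the 6 libraries were fitted alone. IL2, the T cell growth factor, had 49.9, 10.7 and 12.6 CPM at 12 h, against 108, 26.9 and 104 CPM at 6 h. Here too the groups overlapped, B7 lying above B5. The log2 change was -1.70 (SE 0.43, adjusted p = 0.00781). This call was lost without B4 (adjusted p = 0.0565), without B8 (0.0733), without B9 (0.0695) and with the 6 libraries alone (0.131), and the change was -2.77 without B7. At 24 h IL2 stood at 121 ± 50.1 CPM (SD, n = 3). IL22, which acts on epithelial cells, fell by 3.73 (SE 0.85, adjusted p = 0.00338), with 0.195, 0.193 and 0.108 CPM at 12 h, against 2.53, 2.84 and 1.46 CPM at 6 h. The chemokine CCL1 fell by 1.80 (SE 0.39, adjusted p = 0.0017), and by 1.18 without B5, its highest library. TNFSF8, the CD30 ligand, was the member that rose (log2 0.71, adjusted p = 0.000319).

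**Figure D3:**
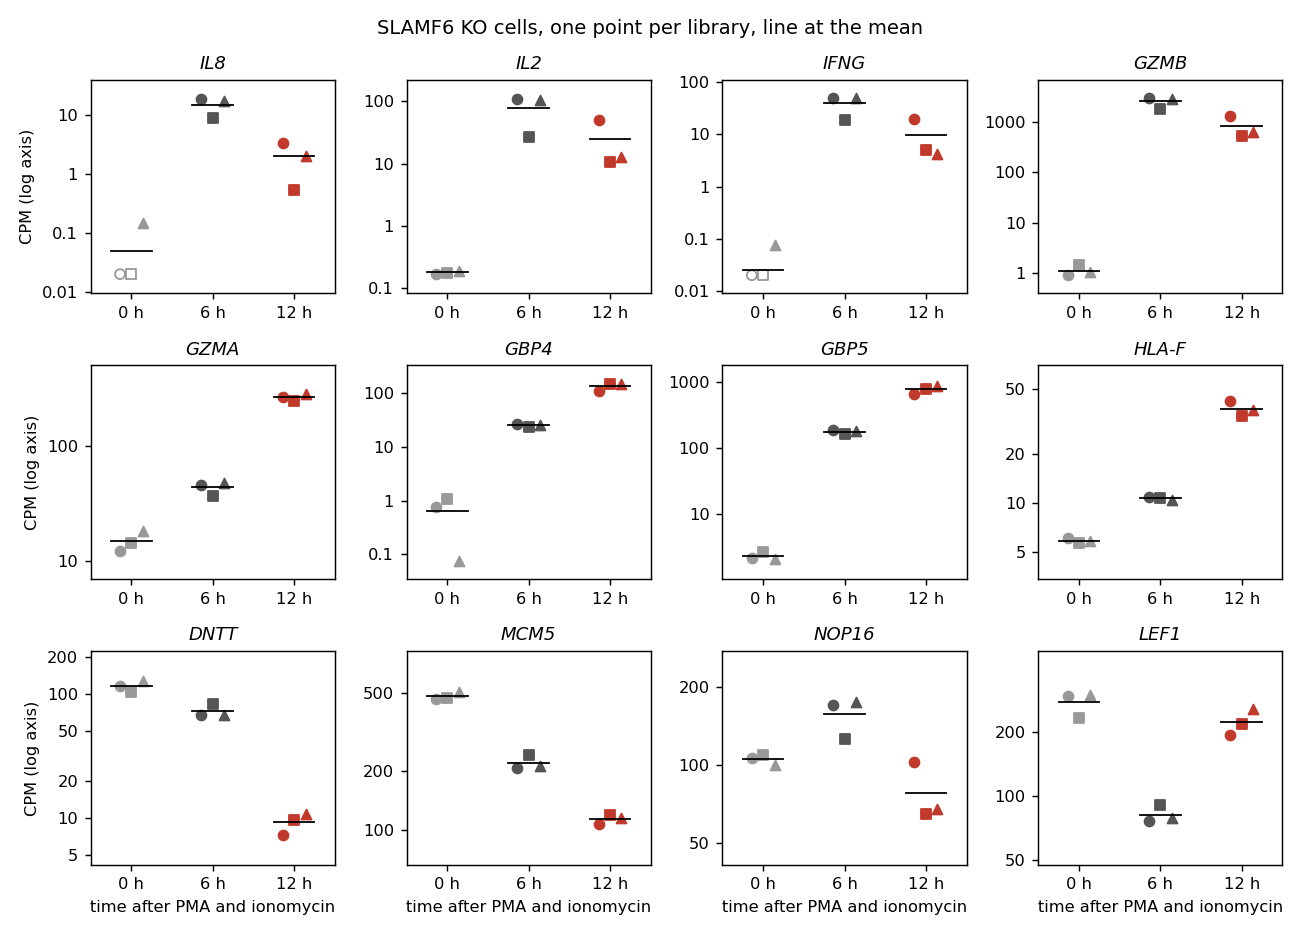
CPM on a log axis in each KO library at 0, 6 and 12 h for 12 genes, with a line at the mean of the 3 libraries. Open symbols at the foot of the axis stand for 0 counts. The means of IL8, IL2, IFNG, GZMB and NOP16 are lower at 12 h than at 6 h, GZMA, GBP4, GBP5 and HLA-F rise at each time, DNTT and MCM5 fall at each time, and LEF1 returns towards its level at rest.

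Receptors, signalling genes and transcription factors of activation moved in both directions. Of 22 activation receptors 8 fell and 2 rose, where 5.75% of all genes fell and 5.08% rose. The number that fell was 5 without B6 and 11 without B5 and B7. IL2RA, the high-affinity chain of the IL-2 receptor, had 32.8, 20.6 and 23.9 CPM at 12 h, against 65.2, 47.5 and 66.7 CPM at 6 h, with no overlap (log2 -1.21, SE 0.22, adjusted p = 0.000256). TNFRSF4, the costimulatory receptor OX40, fell by 1.26 (SE 0.28, adjusted p = 0.00231), and ICAM1, an adhesion molecule, rose (log2 1.40, SE 0.25, adjusted p = 0.000174). Of 23 NF-kB subunits, inhibitors and targets, 7 fell (5.75% of all genes did) and 1, ICAM1, rose, with 4 falling without B8 and 11 without B5 and B7. NFKBIA, which encodes the inhibitor IkB-alpha, had 197, 176 and 180 CPM at 12 h, against 438, 313 and 423 CPM at 6 h. The 12 h libraries all lay below the 6 h libraries (log2 -1.08, SE 0.14, adjusted p = 1.63e-06). The subunit gene REL fell by 1.19 (SE 0.21, adjusted p = 0.000136), although B7, with 115 CPM, lay above B5, with 95.8 CPM, and the adjusted p was 0.0674 with the 6 libraries alone. RELB fell by 0.82 (adjusted p = 0.000506).

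Of 28 immediate early and activation factors, 23 had risen by 6 h (14% of all genes did) and 17 held. Between 6 and 12 h 4 fell (5.75% of all genes did) and 2 rose (5.08%). Without B5 and B7 7 fell and 3 rose, and 1 rose without any 1 of B4, B6 and B8. NR4A1, an orphan nuclear receptor induced by T cell receptor signals, had 23.6, 16.8 and 14.9 CPM at 12 h, against 81.0, 47.0 and 80.2 CPM at 6 h (log2 -1.91, SE 0.23, adjusted p = 5.22e-07). EGR1, a zinc finger factor of the same early wave, went the other way, with 437, 648 and 624 CPM at 12 h, against 179, 262 and 149 CPM at 6 h (log2 1.54, SE 0.15, adjusted p = 7.96e-09). Neither gene had overlapping groups. Of 26 MAPK and calcium feedback genes 4 fell (5.75% of all genes did) and 4 rose (5.08%). Without B5 and B7 4 fell and 7 rose, and without B4 2 fell and 2 rose, while without B6 3 fell and 2 rose. Among them DUSP5, a phosphatase of ERK, fell by 1.35 (SE 0.24, adjusted p = 0.000188), and DGKA, a kinase that removes diacylglycerol, rose (log2 0.99, adjusted p = 1.1e-06).

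Among 16 cytotoxic granule genes 5 fell and 3 rose (5.75% and 5.08% of all genes did), also without B5 and B7, and the granzymes parted. The number that fell was 3 without B4 or without B6 and 2 without B8 or without B9. GZMB, the granzyme that cleaves after aspartate, had 1278, 521 and 631 CPM at 12 h, against 3012, 1804 and 2864 CPM at 6 h, with no overlap (log2 -1.66, SE 0.30, adjusted p = 0.000172). GZMH fell by 1.59 (SE 0.36, adjusted p = 0.00271). GZMA, a granzyme with tryptase activity, showed the largest rise in the step among genes that reach 10 CPM without overlap, with 268, 246 and 287 CPM at 12 h, against 46.0, 36.9 and 47.9 CPM at 6 h. Its log2 change was 2.62 (SE 0.17, adjusted p = 1.26e-12), a 6.13-fold rise. At 24 h GZMB stood at 70.5 ± 31.2 CPM and GZMA at 292 ± 86.5 CPM (SD, n = 3 each).

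The other large falls were mostly genes that had been switched on by 6 h. GRID1, a subunit of delta-type glutamate receptors, showed the largest fall among genes that reach 10 CPM without overlap, with 2.63, 1.40 and 0.647 CPM at 12 h, against 24.4, 21.8 and 22.6 CPM at 6 h (log2 -3.86, SE 0.35, adjusted p = 1.87e-09; -4.46 without B7). NEU4, a sialidase, fell by 3.20 (SE 0.42, adjusted p = 2.22e-06), and by 4.18 without B9. CRIP2, a LIM domain protein, fell by 3.01, ARC, a capsid-forming protein known from neuronal synapses, by 2.76, and ATP6V0A4, a subunit of the vacuolar proton pump, by 2.54. TP53I11, a p53-inducible gene, and NINJ1, which takes part in plasma membrane rupture, were raised at 6 h and below rest at 12 h. TP53I11 had 16.2, 22.2 and 20.1 CPM at 12 h, against 129, 121 and 104 CPM at 6 h, and its log2 change at 12 h over 0 h was -1.20 (adjusted p = 3.29e-07). NINJ1 fell by 2.42 between 6 and 12 h (SE 0.12, adjusted p = 3.22e-15) and was at -0.59 at 12 h over 0 h (adjusted p = 0.000286). PIM1, a survival kinase, had 2.87, 4.91 and 2.05 CPM at 12 h, against 18.7, 14.7 and 22.4 CPM at 6 h (adjusted p = 3.31e-06).

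LEF1, CD3G and SH2D1A were among the genes that had fallen by 6 h and rose again. LEF1, a factor of the Wnt pathway in immature and naive T cells, had 195, 220 and 259 CPM at 12 h, against 76.4, 90.5 and 79.2 CPM at 6 h. No 12 h library came near the 6 h libraries, and the log2 change was 1.45 (SE 0.13, adjusted p = 1.28e-09). ID3, an inhibitor of E proteins, rose (log2 1.15, SE 0.18, adjusted p = 2.16e-05), with 329 CPM in B5 against 168 and 159 CPM in B4 and B6 of the same time. NRROS, a chaperone-like protein of latent TGF-beta, had 17.7, 25.1 and 13.2 CPM at 12 h, against 4.01, 5.59 and 3.997 CPM at 6 h (log2 2.04, SE 0.25, adjusted p = 4.13e-07). The long noncoding RNA CASC15 rose (log2 1.46, adjusted p = 7.29e-07), as did NMT2, a protein N-myristoyltransferase (log2 1.42, adjusted p = 1.77e-05). CD3G, a chain of the CD3 complex, rose (log2 0.62, adjusted p = 0.000166) after a fall of 0.98 by 6 h. Of 14 SLAM family genes 4 rose (5.08% of all genes did) and 1 fell (5.75%), and without B5 and B7 5 rose and 4 fell. CD244, the receptor 2B4, had 42.7, 38.5 and 31.4 CPM at 12 h, against 11.9, 23.6 and 19.4 CPM at 6 h (log2 1.04, SE 0.16, adjusted p = 3.14e-05). SH2D1A, which encodes SAP, had 102, 131 and 143 CPM at 12 h, against 65.7, 68.0 and 68.7 CPM at 6 h (log2 0.90, SE 0.18, adjusted p = 0.000583). SLAMF1 was the member that fell (log2 -1.59, adjusted p = 0.00705), a call lost without B4 (adjusted p = 0.0797), without B8 (0.0704) and without B9 (0.0638), and the change was -2.67 without B7.

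Interferon-stimulated genes rose together. Of 35 tested members 25 rose (5.08% of all genes did) between 6 and 12 h, with a list median of 0.99 on the log2 scale, and the 10 others lay between -0.08 and 0.76. Of these 35, 15 grew on an earlier rise, 7 began after 6 h and 3 recovered. Without B5 and B7 24 rose. GBP4, an interferon-inducible GTPase, had 109, 151 and 149 CPM at 12 h, against 26.3, 23.7 and 26.1 CPM at 6 h (log2 2.43, SE 0.25, adjusted p = 2.94e-08). Its relative GBP5 had 660, 803 and 886 CPM at 12 h, against 190, 164 and 179 CPM at 6 h (log2 2.14, SE 0.17, adjusted p = 1.25e-10). Both genes were far apart between the times in all libraries. TRIM22, an antiviral ubiquitin ligase, rose by 2.10 (SE 0.17, adjusted p = 1.21e-10), and EPSTI1, an interferon-responsive gene, by 2.33 (SE 0.25, adjusted p = 3.4e-08). OAS1, a sensor enzyme for double-stranded RNA, was among those that began late, with 12.1, 10.9 and 11.3 CPM at 12 h, against 3.36, 3.84 and 2.49 CPM at 6 h (log2 1.82, SE 0.30, adjusted p = 7.25e-05).

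Genes of antigen presentation followed the same course on the class I side. Of 24 tested members of the list, which holds class I and class II genes, 16 rose (5.08% of all genes did), with a median log2 change of 0.69 over the whole list. All 16 belong to the class I pathway and 13 of them grew on an earlier rise, while none of the 5 tested members of the class II pathway was called. The 8 members not called lay between -0.46 and 1.63. The highest was CD74 of the class II pathway (adjusted p = 0.188), which stood at 2.76 without B5 and B7 (adjusted p = 0.0502). The same number, 16, rose without each single library of the 6 and without B5 and B7. TAP1, a subunit of the peptide transporter, had 1231, 1378 and 1333 CPM at 12 h, against 628, 643 and 613 CPM at 6 h (log2 1.07, SE 0.11, adjusted p = 3.04e-08). PSMB9, a subunit of the immunoproteasome, rose by 1.38 (SE 0.13, adjusted p = 3.38e-09), and B2M, the light chain of class I molecules, by 0.68 (SE 0.11, adjusted p = 5.9e-05). HLA-F, a nonclassical class I gene, had 42.0, 34.3 and 37.3 CPM at 12 h, against 10.9, 10.7 and 10.3 CPM at 6 h (log2 1.83, SE 0.12, adjusted p = 1.3e-12). Class I genes share near-identical stretches, and how reads that fit several of them were counted is not given in the sources used here, so single HLA values are uncertain.

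Promoter windows of these genes, from 250 bases before to 50 after the RefSeq start on GRCh38.p14, were searched on both strands for the core of the interferon-stimulated response element, GAAA, any 2 bases and GAAA again. It was found in 16 of the 24 interferon-stimulated genes with a window and in 9 of the 20 antigen presentation genes with one, against 3.65% of all 27305 promoters. A match is a description of the letters and not of binding. The windows of GBP4 and TAP1 are shown because these genes carry the rise described above, and their capitals mark the matches, which read as the reverse complement. GBP4 lies on the minus strand at chr1:89198893-89199192 and TAP1 on the minus strand at chr6:32853655-32853954. In TAP1 2 matches overlap.
GBP4: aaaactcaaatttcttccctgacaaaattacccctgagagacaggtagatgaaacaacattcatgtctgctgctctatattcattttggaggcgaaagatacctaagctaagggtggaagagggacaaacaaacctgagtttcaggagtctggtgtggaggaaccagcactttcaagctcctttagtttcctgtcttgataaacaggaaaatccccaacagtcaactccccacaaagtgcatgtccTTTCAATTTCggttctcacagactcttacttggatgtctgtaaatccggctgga
TAP1: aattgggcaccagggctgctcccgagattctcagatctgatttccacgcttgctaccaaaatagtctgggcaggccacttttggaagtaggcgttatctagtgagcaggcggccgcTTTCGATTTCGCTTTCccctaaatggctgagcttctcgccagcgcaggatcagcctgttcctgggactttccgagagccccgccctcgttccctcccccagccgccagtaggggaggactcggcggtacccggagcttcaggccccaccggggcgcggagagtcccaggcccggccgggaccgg

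Genes of DNA replication fell further. Of 35 S phase genes 28 fell (5.75% of all genes did) between 6 and 12 h, with a list median of -0.72 on the log2 scale, and the 7 others lay between -1.11 and -0.29. The fall had begun early for 25 of them, and 23 fell without B5 and B7. MCM5, a subunit of the replicative helicase, had 107, 118 and 115 CPM at 12 h, against 206, 241 and 211 CPM at 6 h, with no overlap (log2 -0.95, SE 0.10, adjusted p = 1.35e-08). RRM2, a subunit of ribonucleotide reductase, fell by 0.96 (SE 0.11, adjusted p = 6.76e-08), and CCNE2, a cyclin of the entry into S phase, by 1.35 (SE 0.20, adjusted p = 8.99e-06). The G2 and mitosis list had fallen by 6 h in 28 of 32 members (13.2% of all genes fell) and did not continue down. Between 6 and 12 h 7 of its members rose (5.08% of all genes did) and 1 fell, with a median of 0.11, and the number that rose was 2 without B4, 3 without B6, 3 without B9, 4 without B8, 12 without B5 and 13 without B5 and B7. HMMR, a spindle-associated protein, was among those that rose (log2 0.70, adjusted p = 0.000919).

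Several other genes fell at both steps. DNTT, the terminal transferase that adds bases at V(D)J joints, had 7.25, 9.68 and 10.7 CPM at 12 h, against 67.7, 83.0 and 68.3 CPM at 6 h (log2 -2.99, SE 0.26, adjusted p = 6.58e-10), and stood at 1.54 ± 0.449 CPM at 24 h (SD, n = 3). MYO7B, an unconventional myosin, fell by 2.23 (SE 0.19, adjusted p = 2.32e-10). CBS, the first enzyme of transsulfuration, fell by 2.01 (SE 0.17, adjusted p = 4.64e-10), PHGDH, the first enzyme of serine synthesis, by 1.46 (SE 0.12, adjusted p = 3.98e-10), and SPNS3, a predicted transporter, by 1.98 (SE 0.15, adjusted p = 5.38e-11).

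Ribosome biogenesis genes fell as well, some of them from a raised level. Of 39 members 18 had risen by 6 h (14% of all genes did). Between 6 and 12 h 22 fell (5.75% of all genes did), with a median of -0.49 on the log2 scale and the 17 others between -0.41 and 0.02. Of the 22, 11 faded and 8 began after 6 h. The number that fell was 14 without B8, 13 without B9, 12 with the 6 libraries alone and 29 without B5 and B7. NOP16, a nucleolar assembly factor of the large subunit, had 102, 64.6 and 67.2 CPM at 12 h, against 171, 126 and 175 CPM at 6 h (log2 -1.01, SE 0.15, adjusted p = 1.67e-05). POLR1B, the second largest subunit of RNA polymerase I, fell by 1.05 (SE 0.16, adjusted p = 1.27e-05). MYC, the factor that drives many of these genes and was put in this list, had 99.1, 26.9 and 31.3 CPM at 12 h, against 286, 99.6 and 247 CPM at 6 h. B7 of 12 h and B5 of 6 h lay side by side, and the remaining 4 libraries were far apart. The log2 change was -2.01 (SE 0.35, adjusted p = 0.000155), and -2.86 without B7. Messages for the ribosomal proteins themselves did not follow. All 46 lay between -0.19 and 0.17 on the log2 scale and none was called by edgeR or DESeq2, nor at an unadjusted p under 0.05 (0 genes).

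**Figure D4:**
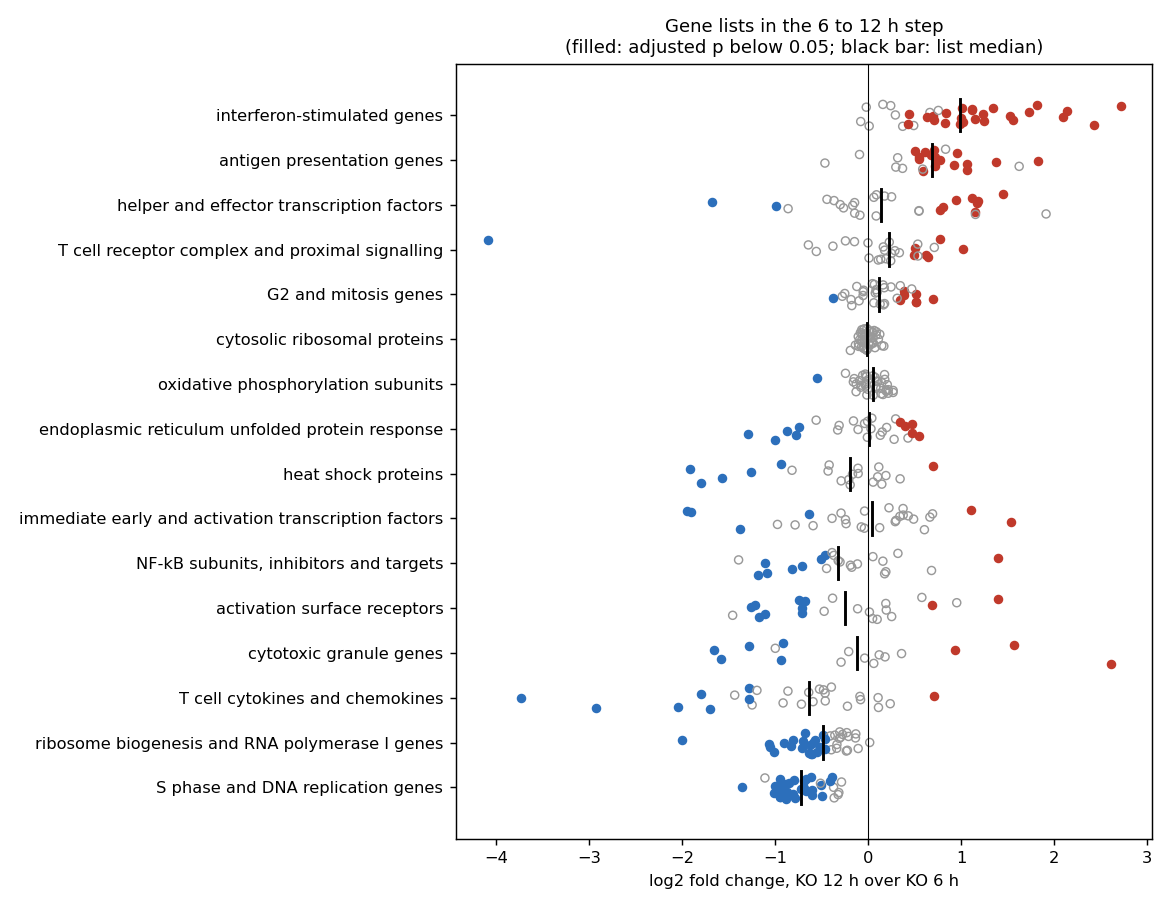
Log2 fold change of KO 12 h over KO 6 h for every tested member of 16 gene lists, one point per gene, filled where the adjusted p was below 0.05 (red higher, blue lower) and open otherwise, with a black bar at the list median. Interferon-stimulated and antigen presentation genes lie to the right with medians of 0.99 and 0.69, and S phase and ribosome biogenesis genes to the left with medians of -0.72 and -0.49.

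The largest class was the genes that held. For the 1594 of them that had risen, the median log2 change was 0.01 between 6 and 12 h. A small change there is built into the class, which takes only genes not called in that step. A change that the test missed therefore counts as held. CD69, the early activation marker, had 922, 574 and 631 CPM at 12 h, against 769, 399 and 819 CPM at 6 h, and the groups overlapped (log2 0.10, SE 0.17, adjusted p = 0.81; -0.40 without B5 and B7, adjusted p = 0.0417). TBX21, which encodes the T helper 1 factor T-bet, had 33.8, 17.6 and 14.7 CPM at 12 h, against 30.4, 8.78 and 23.2 CPM at 6 h (log2 0.09, SE 0.30, adjusted p = 0.915). Its direction depended on the libraries, with -0.36 to 0.47 when 1 was left out. Without B5 and B7 it stood at -0.73 (adjusted p = 0.0699). For some held genes the libraries that stood apart decided the class. CCL4, a chemokine, had 97.0, 10.1 and 9.22 CPM at 12 h, against 87.8, 9.87 and 69.9 CPM at 6 h (log2 -0.52, SE 0.56, adjusted p = 0.662). Without B7 it was called at -2.53, and without B5 and B7 at -3.03 (adjusted p = 3.22e-08). TNFSF14, the ligand LIGHT, had 38.7, 6.31 and 6.63 CPM at 12 h, against 52.7, 14.3 and 51.7 CPM at 6 h (log2 -1.19, adjusted p = 0.0727), and was called at -3.01 without B5 and B7 (adjusted p = 1.15e-09). Both had 0 counts in the KO libraries at rest. RAG2, the recombinase partner that was 35.4 to 38.7 CPM at rest, stayed low, with 0.924, 1.25 and 1.67 CPM at 12 h, against 1.61, 0.830 and 2.88 CPM at 6 h. SLAMF6 itself was a held gene, with a log2 change of 1.15 at 6 h over 0 h (adjusted p = 5.98e-08) and 0.31 at 12 h over 6 h (SE 0.13, adjusted p = 0.143).

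Among genes that reach 10 CPM without overlap, those that began after 6 h and rose were led by SH2D3C and HS3ST3B1. SH2D3C, an adaptor of integrin and receptor signalling, had 64.6, 92.9 and 96.5 CPM at 12 h, against 9.77, 24.5 and 11.5 CPM at 6 h (log2 2.47, SE 0.22, adjusted p = 1.56e-09). HS3ST3B1, a heparan sulfate sulfotransferase, had 13.5, 43.6 and 50.5 CPM at 12 h, against 5.34, 9.04 and 4.87 CPM at 6 h (log2 2.47, SE 0.36, adjusted p = 1.06e-05). That the 12 h libraries lay above the 6 h libraries for both was a condition of this choice. FGFR1, a receptor for fibroblast growth factors, had 16.3, 12.0 and 14.03 CPM at 12 h, against 4.42, 5.98 and 3.51 CPM at 6 h (adjusted p = 1.53e-05). Beside MYC, the late falls under the same rule were led by ATHL1, a glycosidase gene, with -2.03 (SE 0.16, adjusted p = 1.35e-10), and by the mitochondrial chaperonin pair HSPD1 and HSPE1.

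The step was then compared with the same step in WT cells, which share no library with it. In WT 2045 genes changed between 6 and 12 h (9.49%), 829 higher (3.85%) and 1216 lower (5.64%). The difference of the steps, KO minus WT, was called for 153 genes (0.71%), 89 higher (0.413%) and 64 lower (0.297%). The split depended on the scaling, with 66 higher and 76 lower under DESeq2 size factors, where the median difference of all genes was -0.05 instead of 0.01. Without B5 and B7 711 genes were called, 412 higher and 299 lower. The number was 88 without A4, 99 without A5, 90 without A7, 99 without A8, 98 without B6, 98 without B8, 252 without B5 and 264 without B7. In the interferon list 24 of 35 members rose in WT (3.85% of all genes did). No member's step was called different between genotypes by edgeR or DESeq2, with 4 higher and 3 lower in KO at an unadjusted p under 0.05. Genes named above with a called difference, KO minus WT, include IL8 (-2.37), LEF1 (-0.73), GZMA (0.99) and HLA-F (0.77). IL8 was the only member of the cytokine list with this call by edgeR, and DESeq2 called 0 members.

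Chaperones of the endoplasmic reticulum (ER), which are induced by unfolded proteins, had the most members with a called difference among the 33 lists. Of 26 members of the ER list 5 rose and 5 fell in the KO step (5.08% and 5.75% of all genes did). In the WT step 1 rose and 18 fell (3.85% and 5.64% of all genes did). The difference was called for 16, each time as a higher step in KO (0.413% of all genes). Without B5 and B7 3 rose and 7 fell in the KO step and 13 differences were called. The median log2 difference was 0.94. HSPA5, the main ER chaperone BiP, had 1440, 1265 and 1392 CPM at 12 h, against 2943, 2542 and 2705 CPM at 6 h in KO cells. In WT cells it had 1014, 1002 and 975 CPM at 12 h, against 6760, 7023 and 6786 CPM at 6 h. It fell by 1.00 in KO and by 2.78 in WT, a difference of 1.78 (SE 0.15, adjusted p = 8.81e-10). The genotypes were further apart at 6 h than at 12 h. HERPUD1, a part of the ER degradation machinery, had 81.7, 76.6 and 96.3 CPM at 12 h, against 214, 198 and 211 CPM at 6 h in KO cells, and 49.9, 42.2 and 43.0 CPM at 12 h, against 460, 458 and 417 CPM at 6 h in WT cells. The difference of its steps was 2.02 (SE 0.14, adjusted p = 4.42e-11). SDF2L1, another ER chaperone component, differed by 1.82 (SE 0.16, adjusted p = 2.13e-09). DNAJC3, a cochaperone, and MANF, a secreted ER protein, held in KO (log2 -0.11 and 0.28, adjusted p = 0.609 and 0.13) and fell in WT (-1.66 and -1.26, adjusted p = 3.08e-13 and 1.78e-09). Their differences were 1.55 (adjusted p = 1.58e-08) and 1.54 (adjusted p = 3.3e-07). XBP1, a transcription factor of the unfolded protein response, differed by 1.48 (SE 0.17, adjusted p = 1.14e-06).

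The ER stress response element, CCAAT, any 9 bases and CCACG on either strand, was found in the promoter windows of 6 of the 24 ER list genes with a window, against 0.0806% of all promoters. This motif was chosen after the result was seen. The HSPA5 window, minus strand at chr9:125241294-125241593, is shown with its match in capitals because HSPA5 carries the contrast between genotypes.
HSPA5: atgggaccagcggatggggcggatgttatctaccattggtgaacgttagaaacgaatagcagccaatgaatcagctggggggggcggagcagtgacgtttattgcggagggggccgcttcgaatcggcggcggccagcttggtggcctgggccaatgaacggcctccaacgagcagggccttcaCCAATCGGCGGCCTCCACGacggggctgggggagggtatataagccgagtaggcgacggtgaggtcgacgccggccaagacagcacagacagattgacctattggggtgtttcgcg

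**Figure D5:**
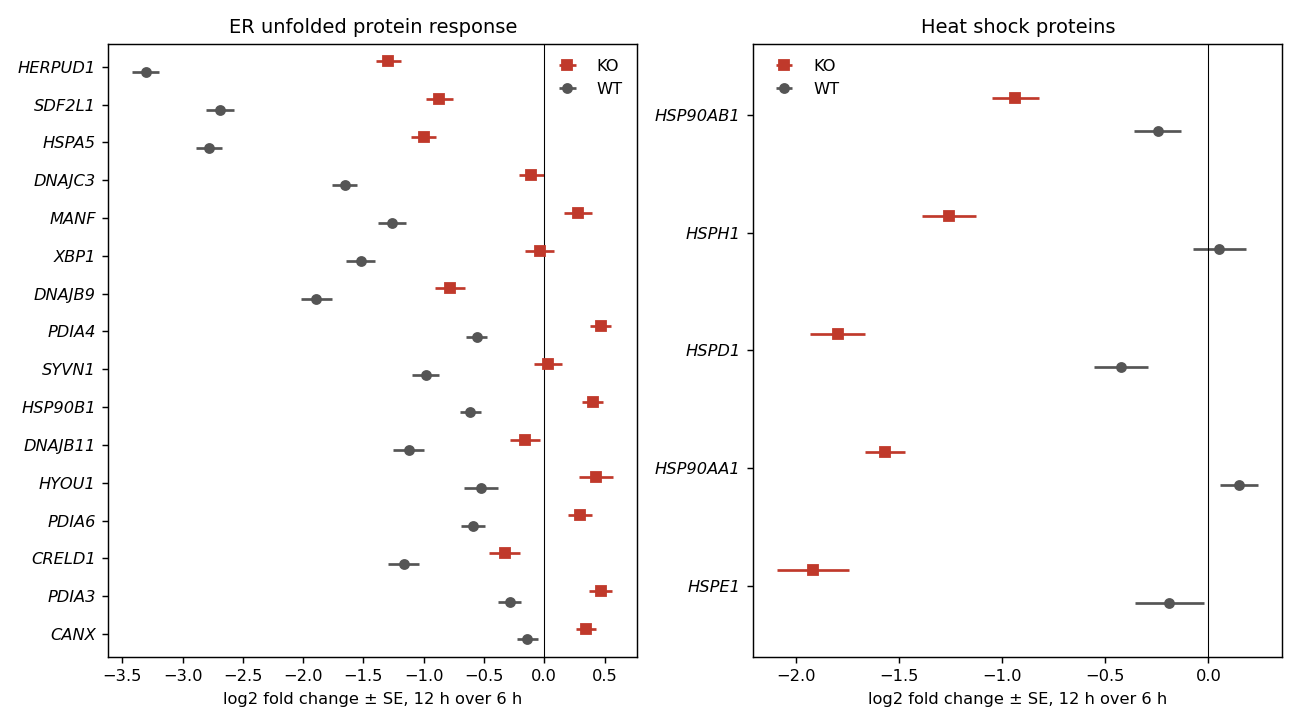
Log2 fold change of 12 h over 6 h with its SE in KO (red squares, above) and WT cells (grey circles, below) for the 16 ER list genes and the 5 heat shock genes whose steps were called different. ER genes fall less or rise in KO, HERPUD1 most apart with a difference of 2.02, while the heat shock genes fall in KO and lie between -0.42 and 0.15 in WT.

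Some cytosolic and mitochondrial heat shock proteins showed the opposite contrast. Of 21 members 5 fell and 1 rose in the KO step (5.75% and 5.08% of all genes did). The same 5, HSPD1, HSPE1, HSP90AA1, HSP90AB1 and HSPH1, were called as lower steps in KO than in WT (0.297% of all genes). These counts were the same without B5 and B7. The differences of the 16 other members lay between -1.39 and 1.65, and the list median difference was -0.21. At an unadjusted edgeR p under 0.05, 8 members had a lower step in KO and 0 a higher one. The call of HSP90AB1 (-0.69, adjusted p = 0.0294) was lost without any 1 of A4, A5, A6, A7, A8, B4, B5, B8 and B9. HSP90AA1, the inducible form of HSP90, had 677, 614 and 687 CPM at 12 h, against 1862, 1947 and 2056 CPM at 6 h in KO cells. In WT cells it had 1006, 950 and 938 CPM at 12 h, against 886, 833 and 893 CPM at 6 h. The difference of the steps was -1.72 (SE 0.13, adjusted p = 3.04e-10). HSPE1, the cochaperonin HSP10, had 175, 119 and 143 CPM at 12 h, against 528, 592 and 531 CPM at 6 h in KO cells, and 214, 213 and 181 CPM at 12 h, against 232, 233 and 230 CPM at 6 h in WT cells. Its steps differed by -1.73 (SE 0.24, adjusted p = 4.09e-05). HSPD1, the chaperonin HSP60, differed by -1.37 (SE 0.18, adjusted p = 2.45e-05), and HSPH1, an exchange factor of HSP70, by -1.31 (SE 0.18, adjusted p = 4.89e-05). HSPA8, the constitutive HSP70, moved the other way, rising in both genotypes (log2 0.70 in KO and 0.80 in WT, adjusted p = 5.18e-05 and 1.02e-05). HSP90 and chaperonin genes have processed pseudogenes, and how the counting treated them is not given in the sources used here. The heat shock element GAA, any 2 bases, TTC, any 2 bases and GAA, also chosen after the result was seen, was in 3 of 19 windows of this list, none of them among the 5 genes, against 0.487% of all promoters.

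Cholesterol synthesis genes had fewer called differences, although most members leaned the same way. At an unadjusted edgeR p under 0.05, 21 of the 30 steps were higher in KO and 0 lower. The median log2 difference was 0.46. Of 30 members 1 rose and 1 fell in the KO step (5.08% and 5.75% of all genes did), 19 fell in the WT step (5.64%), and 5 differences were called, all as a higher step in KO (0.413%). MVK, mevalonate kinase, had 59.2, 64.5 and 54.9 CPM at 12 h, against 54.4, 56.0 and 47.4 CPM at 6 h in KO cells, and 31.2, 21.2 and 23.8 CPM at 12 h, against 52.9, 59.3 and 46.0 CPM at 6 h in WT cells. The difference of the steps was 1.24 (SE 0.20, adjusted p = 0.000639). TM7SF2, a sterol reductase, differed by 1.06 (SE 0.16, adjusted p = 0.000197). The count of 5 was 3 without any 1 of A4, A5, A8, B4, B6 and B8, and 7 without B5 and B7. Outside the lists, SLCO4A1, an organic anion transporter, had 35.4, 29.3 and 27.8 CPM at 12 h, against 58.5, 80.9 and 67.3 CPM at 6 h in KO cells, and 37.8, 37.5 and 39.1 CPM at 12 h, against 30.3, 31.3 and 27.5 CPM at 6 h in WT cells, a difference of -1.52 (SE 0.19, adjusted p = 4.85e-06). GADD45A, a stress-induced arrest gene, differed by -1.80 (SE 0.36, adjusted p = 0.00708), and CD5, a negative regulator of T cell receptor signals, by 0.87 (SE 0.16, adjusted p = 0.0024).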

How the data were processed

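RNA was measured by sequencing in 30 bulk libraries of KO and WT Jurkat cells, and 12 of them (6 and 12 h) plus 3 KO libraries at rest enter the comparisons. For the 3 KO libraries of 24 h only levels are quoted. The deposited files hold expected counts per gene symbol, and the submitters' processing notes name cutadapt, STAR, DESeq2 and the builds GRCh37 and hg19. The program that counted reads, and all versions, are not stated there. Of 54300 symbols, 195 had values that were not whole, and all values were rounded. Gene totals, not isoforms, were counted.

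The rounded counts were fitted with edgeR 4.0.16 in R 4.3.3 (TMM scaling, filterByExpr with a minimum count of 10, quasi-likelihood test). One fit of the 30 libraries gave a mean to each of the 10 genotype and time groups, with Benjamini-Hochberg adjustment over 21554 genes and calls at an adjusted p under 0.05. Every adjusted p in the text is of this kind unless another fit is named. The SE of a log2 change was its size over the root of the F statistic, CPM is per M counts after TMM, and precision is limited by 3 libraries a group. In counts simulated for the step, 90% of 2-fold rises, 60% of 2-fold falls and 8% of 1.5-fold rises were called. Each share is of 50 changed genes among 20537 tested. The changed genes were taken above a minimum count, all genes had the same dispersion, and no library stood apart. These points may make the shares too high for the data. On the other side, only 200 genes were changed in the simulation, whereas 2334 were called in the data. Fewer changed genes make the adjusted threshold stricter, which may make the shares too low. Which of these weighs more was not tested.

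Alternatives were DESeq2 1.42.0, its size factors, other count filters, fewer libraries in the fit, each library left out and a replicate block. Leaving out both B5 and B7 was added after seeing the data. No shared shift was seen between WT and KO libraries with the same number in their titles, so the main fit had no block. The members and lists were chosen with earlier results of these data known. Named genes are SLAMF6, IL2, IFNG, TBX21, CD69 and GZMB, and those picked by size among called genes of at least 10 CPM with no overlap, by class (4 a direction), by smallest p in each list (4) and by smallest p of the genotype difference (5 a direction). IL22, TNFRSF4, ID3, RELB, CCNE2, MVK, XBP1, B2M, HSPA8, HSP90AB1, the T cell genes of the identity check and other list members fall outside this and were chosen after their values were seen. Promoters are from RefSeq, which may differ from the authors' build, and were matched by symbol. Some genes of the lists are counted but not reported singly here.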

Additional observations from a re-analysis of the deposited data

Results flagged for a closer look

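For 10 genes the change between 6 and 12 h differed between KO and WT cells by the test of that difference itself (edgeR interaction contrast, 3 libraries a group). The difference, KO step minus WT step on the log2 scale, was 2.02 for HERPUD1, 1.82 for SDF2L1, 1.78 for HSPA5, 1.55 for DNAJC3 and 1.54 for MANF, all genes of the ER list. It was -1.73 for HSPE1, -1.72 for HSP90AA1, -1.37 for HSPD1 and -1.31 for HSPH1, all of the heat shock list, and -1.52 for SLCO4A1. These are the 5 smallest p-values in each direction at 10 CPM or more, so their sizes are those of chosen genes. All 10 kept their call when any single library of the 12 was left out. The labels do not say how many KO clones there were, so a difference between genotypes and one between clones cannot be told apart.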

How the results depend on the processing

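The step count of 2334 became 1360 with the 6 libraries alone and lay between 1456 and 2470 when 1 library was left out. Faded genes lay between 592 and 1115, grown genes between 269 and 427 and begun genes between 384 and 709. The genotype difference, 153 genes, was 259 with DESeq2, 408 with no low count filter, 711 without B5 and B7, and between 88 and 264 with 1 library left out. With the title number as a replicate block 117 genes were called, against 142 in the same 12 libraries without it. Correlations of same-numbered deviations lay between -0.015 and 0.0487, so no shared shift was seen. They were taken over all tested genes, low counts included, and do not show whether same-numbered libraries were prepared together. KO libraries of 6 and 12 h share no number. Of the calls in the step, 99.1% were kept the same way with DESeq2 size factors and 56.3% with the 6 libraries alone. Without B5 and B7, CD69 fell by 0.40 (edgeR adjusted p = 0.0417) and ITGAE, which had fallen by 0.62, stood at 0.027 (adjusted p = 0.946). The cause was not tested. Of 107 recomputed counts 86 stayed within 1.5 times the reported one. Of 1780 recomputed values of named genes, 1690 kept direction and side of the threshold, 76 lost a call and 12 gained one. Among 3 libraries a side, simulated 1.5-fold rises were mostly missed, so a gene that was not called may still have changed.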

Other observations

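Among 28 helper and effector transcription factors 8 rose and 2 fell between 6 and 12 h in KO cells (5.08% and 5.75% of all genes did), and without any single library of the 6, 8 or 9 rose. BCL6, the factor of follicular helper cells, had 72.0, 93.6 and 79.5 CPM at 12 h, against 34.7, 58.4 and 33.5 CPM at 6 h (log2 0.95, SE 0.16, edgeR adjusted p = 5.45e-05). STAT3, which carries signals of IL-6 family cytokines, had 390, 499 and 482 CPM at 12 h, against 253, 274 and 259 CPM at 6 h (log2 0.80, SE 0.11, adjusted p = 1.73e-06). Neither gene had overlapping groups. EOMES, a T-box factor of effector cells, fell by 1.67 (SE 0.30, adjusted p = 0.000176). Of 27 genes of the T cell receptor complex and its proximal signalling, 6 rose and 1 fell (5.08% and 5.75% of all genes did), with 10 rising without B7. LCP2, which encodes the adaptor SLP-76, had 224, 283 and 249 CPM at 12 h, against 103, 148 and 121 CPM at 6 h (log2 1.02, SE 0.12, adjusted p = 3.36e-07).

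Of 28 amino acid and integrated stress genes 5 rose and 4 fell (5.08% and 5.75% of all genes did). ASNS, asparagine synthetase, had 43.3, 43.7 and 51.4 CPM at 12 h, against 98.8, 104 and 102.5 CPM at 6 h (log2 -1.14, SE 0.16, adjusted p = 5.57e-06). SLC7A11, the cystine transporter, fell by 1.31 (SE 0.16, adjusted p = 5.75e-07). PSAT1, an enzyme of the serine pathway downstream of PHGDH, rose (log2 0.51, SE 0.14, adjusted p = 0.0152) while PHGDH fell. Among 39 oxidative phosphorylation subunits 1 fell (5.75% of all genes did). It was CYCS, which encodes cytochrome c (log2 -0.55, adjusted p = 0.00209), and the 38 others lay between -0.24 and 0.27. None of 13 mitochondrially encoded transcripts was called by edgeR or DESeq2, nor at an unadjusted p under 0.05 (0 genes).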
